A study of Homo sapiens with 11 samples.

Results

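Gene expression was compared between A673sh Ewing sarcoma cells carrying an AKT-resistant form of the transcription factor FOXO1 and the same cells carrying an empty plasmid. The comparison rests on 2 of the 11 arrays of the series, 1 for each plasmid, chosen by their labels and not by any measured value. A673sh is a derivative of the A673 line that carries a doxycycline-inducible shRNA against EWS-FLI1, the fusion oncogene of this tumour. Both arrays came from cells that received no doxycycline, so EWS-FLI1 was present in both. The plasmids were introduced by transient lipofection: pCDNA3 alone, or pCDNA3 with Flag-tagged FOXO1-AAA, in which the residues phosphorylated by AKT were changed to alanine (T24A, S256A and S319A). A transient transfection reaches some cells and not others, and each array therefore averaged over both kinds of cell. The other 9 arrays served as a yardstick. One more plasmid array carried Flag-FOXO1 with S249A and S298A, which resists phosphorylation by CDK2, also without doxycycline. The remaining 8 arrays were duplicates of 4 groups, A673sh cells with a scrambled shRNA or an shRNA against FOXO1, each without doxycycline or with it for 48 h.

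FOXO1 is a forkhead transcription factor that acts in the nucleus on genes of cell cycle arrest, stress defence, metabolism and survival. Growth factor signalling through PI3K and AKT phosphorylates it, whereupon 14-3-3 proteins bind it and hold it in the cytoplasm. A FOXO1 whose AKT sites are alanine escapes this control and stays in the nucleus, and it is therefore used to ask which genes respond to active FOXO1 while EWS-FLI1 is still expressed.

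The values were log2 levels per gene, and 12326 genes were measured above a filter on dim probe sets. With 1 array a side there is no replicate check and no test, so a gene was called higher or lower when the 2 arrays differed by more than 0.7 on the log2 scale (1.62-fold). The median level of all probe sets lay between 5.10 and 5.17 on the 11 arrays. The empty vector array differed more from the sh-scrambled controls than from either FOXO1 array: 1711 genes (13.9%) were past 0.7 between it and the mean of the sh-scrambled arrays without doxycycline, 1242 of them higher with empty vector. Plasmid arrays and shRNA arrays were therefore set side by side as levels, and most differences were taken within each set. The exception is a mean of the empty vector array and both sh-scrambled arrays without doxycycline, used as an alternative control. Differences against that mean also carry the difference between the sets.

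FOXO1 transcript itself was the check of the label. Its level was 5.84 with empty vector and 8.30 with AKT-resistant FOXO1, a difference of 2.46. The level was 7.06 with the CDK2-resistant form, 5.86 and 5.81 in sh-scrambled cells, and 7.35 and 7.04 in sh-scrambled cells with doxycycline. In sh-FOXO1 cells it was 4.97 and 4.80, and 5.76 and 5.75 with doxycycline. The AKT-resistant array thus had the highest FOXO1 level of the 11, above both arrays on which EWS-FLI1 had been knocked down. A second probe set gave a larger difference, from 3.97 to 8.84, while another gave none, reading 5.88 and 5.71. Plasmid and endogenous transcript cannot be told apart by these values. Of the other measured FOXO genes, FOXO3 and FOXO4 had differences of −0.06 and 0.03, and FOXO6 had −0.65, close under the limit. Of 17 measured genes of the forkhead family, FOXO1 was the only one past 0.7.

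With AKT-resistant FOXO1, 208 genes were higher (1.69% of all genes) and 186 were lower (1.51%). Past a log2 difference of 1 there were 90 higher and 49 lower genes. Past 2 there were 17 higher and 0 lower, by the probe set used for each gene. In cell populations such as these, fewer cells of a kind and less RNA per cell cannot be told apart. The same limit applied to replicate arrays of 1 condition gave fewer genes: 157 (1.27%) between the sh-scrambled duplicates, 39 (0.316%) between those with doxycycline, 90 (0.73%) between the sh-FOXO1 duplicates and 46 (0.373%) between those with doxycycline. In that order, 153, 35, 73 and 42 of these were lower in replicate 1. Same-numbered arrays shared part of their deviations, so the duplicates are not 4 independent measures of spread. Both directions together, AKT-resistant FOXO1 against empty vector gave 394 genes (3.2%). The CDK2-resistant array against the same empty vector array gave 403 (3.27%), so a count of this size was not particular to AKT-resistant FOXO1. The standard deviation of the difference over genes was 0.31 for AKT-resistant FOXO1 against empty vector and 0.151 to 0.223 within the duplicates. It was 0.299 for the CDK2-resistant array against empty vector.

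Each of the 208 higher genes differed by more than it did in any of the 4 duplicates, as did 178 of the 186 lower genes and 5009 of all 12326 genes. This follows largely from the limit, since only 1.54% of all genes had a duplicate difference past 0.7, and it is not separate evidence. Only 1 of the higher genes was past 0.7 in a duplicate, against 15 of the lower genes. The genes just inside the limit were THSD4 at 0.7004 and SLC35F3 at −0.7002. Those just outside it were NR2F1-AS1 at 0.6994 and EME2 at −0.6996. Between 0.6 and 0.7 there were 107 genes and between 0.7 and 0.8 there were 67, so the lists have no natural edge at the limit.

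**Figure D1:**
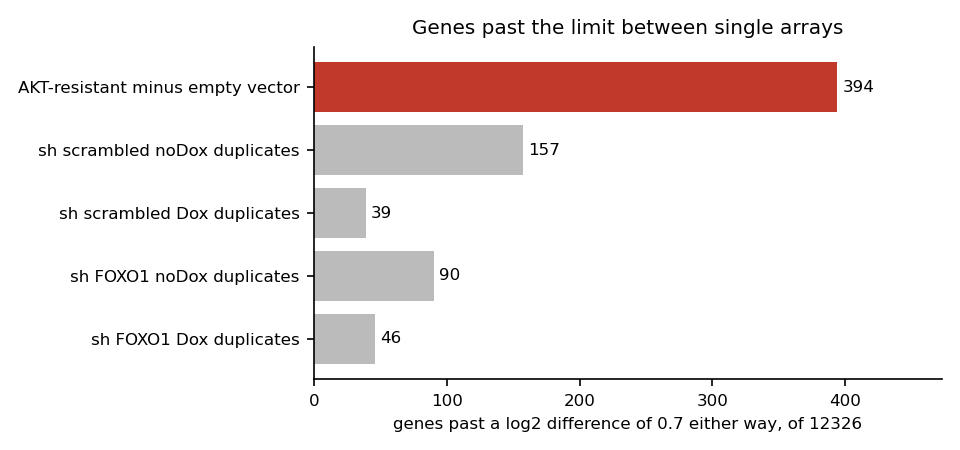
Number of genes past a log2 difference of 0.7 in either direction (x axis) between the AKT-resistant FOXO1 and empty vector arrays (red) and within each of the 4 shRNA duplicates (grey). AKT-resistant FOXO1 gave 394 genes where the duplicates gave 39 to 157. The CDK2-resistant array against the same empty vector array, not drawn, gave 403.

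The control array mattered to the count. Against the mean of the empty vector array and both sh-scrambled arrays without doxycycline, 825 genes were higher and 533 lower. Against the CDK2-resistant array there were 518 higher and 583 lower. Of the 208 higher genes, 150 were past 0.7 against all of these controls, and of the 186 lower genes, 100 were. These controls are not separate, since the mean holds the empty vector array, and the sh-scrambled arrays were not used alone.

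The genes with the highest differences had various roles. CLCA1, a secreted regulator of chloride channels, read 5.12 with empty vector and 9.07 with AKT-resistant FOXO1, a difference of 3.95. It read 4.56 with the CDK2-resistant form and 4.26 to 5.08 on the 8 shRNA arrays, so it was high on 1 array only. MMP10, the matrix protease stromelysin 2, was at 6.71 and 10.41, a difference of 3.70. Its relative MMP3, stromelysin 1, was at 8.02 and 10.44. The 2 proteases differed in the size of their rise after EWS-FLI1 knockdown. MMP10 went from 5.05 and 5.15 in sh-scrambled cells to 11.15 and 11.06 with doxycycline. MMP3 went from 5.36 and 5.61 to 6.15 and 6.11, a log2 fold change of 0.64. Silencing of FOXO1 without doxycycline raised both, with log2 fold changes of 3.01 for MMP10 and 1.60 for MMP3. TM4SF1, a tetraspanin-like surface protein, was at 4.64 and 8.29, and its 2 other bright probe sets had differences of 2.58 and 2.66.

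DCN encodes decorin, a small proteoglycan that binds collagen and growth factors. With empty vector its level was 5.46, against 8.65 for AKT-resistant FOXO1, and the CDK2-resistant form lay 0.54 above empty vector. On the sh-scrambled arrays it was 5.84 and 5.73, and 6.50 and 6.64 with doxycycline. On the sh-FOXO1 arrays it was 5.80 and 5.90, and 6.43 and 6.52 with doxycycline. The AKT-resistant array was thus about 2 log2 units or more above all 10 others for decorin, including those with EWS-FLI1 knocked down, and its 2 other bright probe sets gave 2.51 and 3.08. ESM1, a proteoglycan secreted by endothelium, and ANGPT2, a ligand of the TIE2 receptor, were at 3.65 and 6.44 and at 3.65 and 5.81. With empty vector both were dimmer than the array's lower quartile, which leaves the size of their difference uncertain.

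Several further genes of the top 15 carry metabolic or signalling roles. RBP4, the carrier of retinol in blood, was at 4.14 and 7.04, although a probe set of it below the filter gave −0.54. TBC1D4, known as AS160 and itself a substrate of AKT in glucose uptake, was at 6.82 and 9.14, and its other probe set gave 2.18. GRAMD1C, a sterol-binding protein of membrane contacts, was at 4.53 and 6.68. CARD16, an inhibitor of caspase 1, was at 4.37 and 6.98. The lectin-like surface protein CLEC2B was at 8.04 and 10.46. CD55, which protects cells from complement, was at 4.43 and 6.55, and its 2 other probe sets gave 2.06 and 1.95. Of the 15 genes, 13 had their highest level of all 11 arrays on the AKT-resistant array, which their choice by the largest differences favours. By the probe sets used, CLCA1, TM4SF1, RBP4, ESM1, ANGPT2 and CD55 reached the filter on that array only.

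**Figure D2:**
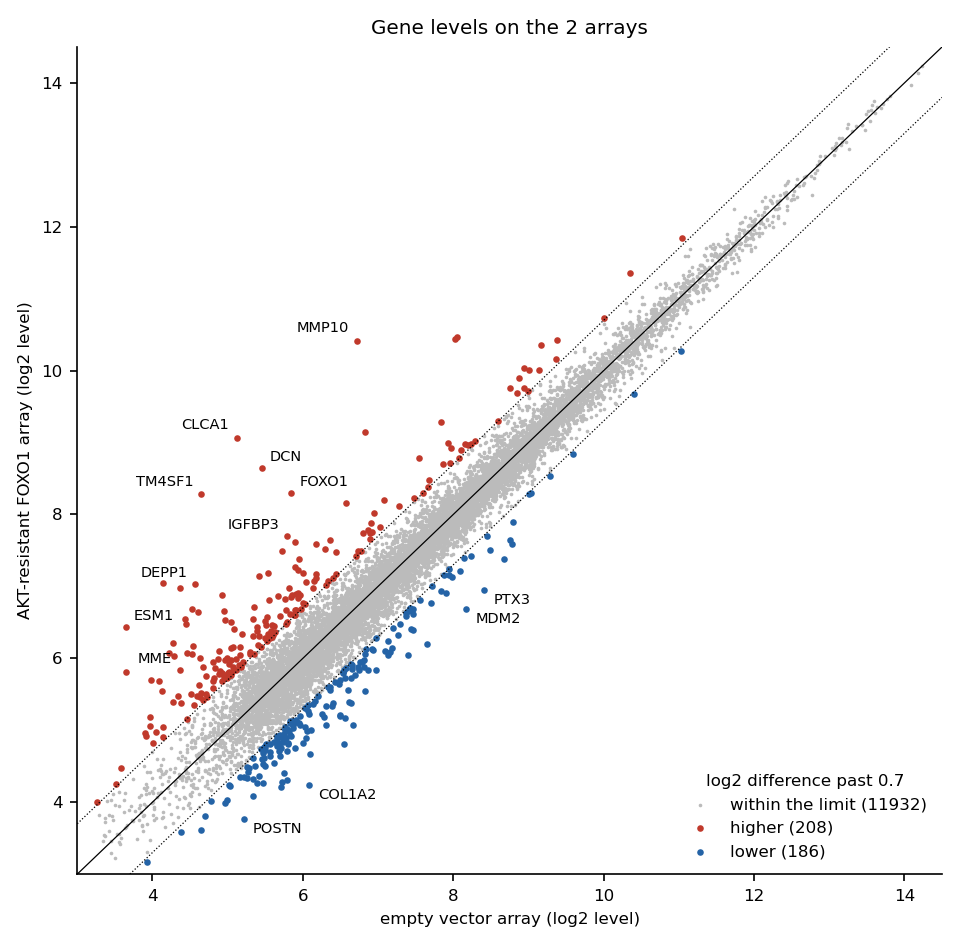
Log2 level of each of the 12326 genes on the empty vector array (x axis) and on the AKT-resistant FOXO1 array (y axis); dotted lines mark a difference of 0.7 either way. Red points are the 208 higher and blue points the 186 lower genes, with CLCA1, MMP10, TM4SF1 and DCN far above the diagonal and no blue point as far below it.

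The lower genes had smaller differences. By the probe sets used, COL1A2, which encodes a chain of type I collagen, had the largest, from 6.08 with empty vector to 4.24, a difference of −1.85. It read 5.77 with the CDK2-resistant form, 6.56 and 6.92 in sh-scrambled cells and 10.93 and 10.95 after knockdown, so the AKT-resistant array was the lowest of all. Its other probe sets gave −0.77 and 0.26. POSTN, the matrix protein periostin, was at 5.21 and 3.76, the latter of which is under the lower quartile of that array. A brighter probe set of POSTN, also past the filter, read 7.26 and 4.89, a difference of −2.38. COL16A1, a collagen of the FACIT group, was at 7.65 and 6.20, and LRRC17, a secreted leucine-rich repeat protein, at 6.10 and 4.67.

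PTX3, a pentraxin of innate immunity, was at 8.41 with empty vector and 6.95 with AKT-resistant FOXO1. It was only 5.75 and 6.13 in sh-scrambled cells, and against the mean of the 3 controls its difference was 0.19, the other way. MDM2, the ubiquitin ligase of p53, was at 8.18 and 6.69, but a brighter MDM2 probe set read 9.12 and 9.11. The duplicates of the probe set used differed by up to 0.84. PLEKHA2, an adaptor that binds phosphoinositides, had a difference of −1.60 with duplicates up to 1.01 apart. SERTM1, a small membrane protein, was at 6.55 and 4.81, and IFI44L, an interferon-stimulated gene, at 6.55 and 5.17.

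Genes known as FOXO targets were taken as 2 lists. In the list of stress and metabolic targets, 4 of 19 measured genes were higher and 0 lower. The median log2 difference was 0.30 there and −0.02 over all genes. Within the duplicates the largest median of this list was 0.04. Of the 19, 11 were above 0 and 8 below, while over all genes 5645 were above and 6681 below. In the list of growth arrest and death targets, 1 of 13 was higher, 0 were lower and the median was 0.09.

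DEPP1, a FOXO-induced gene of autophagy and oxidative stress, led the first list at 2.46. With empty vector its level was 4.57, against 7.03 for AKT-resistant FOXO1 and 4.95 for the CDK2-resistant form. In sh-scrambled cells it was 5.16 and 5.05, and 6.96 and 6.77 with doxycycline, and in sh-FOXO1 cells 5.35 and 5.13, and 6.69 and 6.66 with doxycycline. The AKT-resistant array thus matched the DEPP1 level seen after EWS-FLI1 knockdown. After knockdown it rose by 1.76 on the log2 scale (standard error 0.10, adjusted p = 1.9e-06, limma), and FOXO1 silencing under the knockdown gave −0.19 (adjusted p = 0.2, limma). A second DEPP1 probe set, the brighter with empty vector, differed by 0.25 only.

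SESN3, a sestrin that restrains mTORC1 and oxidative stress, differed by 1.60 but needs its other arrays to be read. It was at 4.09 with empty vector and at 5.69 with both the AKT-resistant and the CDK2-resistant form. In sh-scrambled cells it was higher still, at 6.58 and 6.80, so that against the mean of the 3 controls the difference was −0.13. The empty vector array had the lowest level of the 11 for this gene. SELENOP, a selenium carrier of plasma, was at 3.52 and 4.25, the former under the lower quartile. FBXO32, the muscle atrophy ubiquitin ligase atrogin-1, was at 5.56 and 6.28.

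The other members of both lists were within the limit or close to it. The antioxidant genes SOD2, SESN1 and SESN2 had differences of 0.37, 0.33 and 0.30, and catalase (CAT) had −0.20. LPIN1, a phosphatidate phosphatase of lipid metabolism, had 0.54 and the transcription factor KLF6 0.56, while KLF15, a regulator of gluconeogenic genes, had −0.67. Among the brakes on the cell cycle, the cyclin G2 gene CCNG2 was at 6.44 and 7.17, a difference of 0.73 that was 0.40 against the mean of the 3 controls. Its brightest probe set gave 0.33, and the others past the filter gave 0.85 and −0.12. CDKN1A, which encodes p21, had 0.39, and CDKN1B, which encodes p27, had −0.12. The death genes PMAIP1 and BCL2L11 had 0.53 and 0.23. PDK4, G6PC1, PCK1, IGFBP1 and TNFSF10, which are textbook FOXO targets in other tissues, did not pass the filter on dim probe sets.

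The FOXO proteins recognise a short forkhead core, written GTAAACA or, on the opposite strand, TGTTTAC. Promoters of genes higher with AKT-resistant FOXO1 were read from 250 bases before to 50 after the start site (RefSeq, GRCh38.p14). A core was found in 6 of 166 promoters (3.61%), against 7 of 134 (5.22%) among lower genes and 225 of 9989 (2.25%) among all genes tested. Over the whole promoter table it was found in 931 of 27305 (3.41%). Past a limit of 1 the order of higher and lower genes turned, with 4 of 71 (5.63%) and 1 of 35 (2.86%). These are few promoters, and a match to these letters is a description and not a site of binding. The following stretches show the core, in capitals, for 4 genes described here, each in the direction of its gene.
DEPP1: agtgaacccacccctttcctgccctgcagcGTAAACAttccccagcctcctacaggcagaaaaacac
GRAMD1C: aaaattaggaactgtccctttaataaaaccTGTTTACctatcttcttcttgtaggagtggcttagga
SELENOP: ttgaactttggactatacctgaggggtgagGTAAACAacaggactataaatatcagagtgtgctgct
KYNU: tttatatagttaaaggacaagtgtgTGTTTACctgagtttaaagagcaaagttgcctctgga
The DEPP1 stretch lies at chr10:44978953-44979019 on the minus strand, with the core starting at −180 from the start site. The GRAMD1C stretch lies at chr3:113897400-113897466 on the plus strand, with the core at −70. That of SELENOP lies at chr5:42811901-42811967 on the minus strand, with the core at −45. That of KYNU, the kynureninase of tryptophan breakdown, lies at chr2:142877414-142877475 on the plus strand, with the core at −225. All 4 stretches lie upstream of the start site, outside the transcript.

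Of 24 measured genes that EWS-FLI1 is known to repress, 7 were past the limit upward and 1 downward, the median was 0.36, and 20 were above 0. The list holds EPAS1, MME and OSMR, which the study picked with these arrays in view, so its count is not independent evidence of a direction. Within the duplicates the largest median was 0.06. FOXO1 itself is a member, so 1 of the 7 was the introduced gene. IGFBP3, which binds IGF and limits its action, was the highest of the others. With empty vector its level was 5.79, against 7.70 for AKT-resistant FOXO1 and 5.23 for the CDK2-resistant form. In sh-scrambled cells it was 4.85 and 5.12, and 9.92 and 9.94 with doxycycline, and in sh-FOXO1 cells 5.37 and 5.59, and 9.36 and 9.32 with doxycycline. IGFBP3 on the AKT-resistant array thus lay between its levels with and without EWS-FLI1 knockdown, and its second probe set gave 1.13.

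MME, the surface peptidase CD10, was at 4.36 with empty vector and 5.84 with AKT-resistant FOXO1, and at 4.42 with the CDK2-resistant form. It was 4.04 and 4.28 in sh-scrambled cells, 6.74 and 6.94 with doxycycline, and 5.62 and 5.77 in sh-FOXO1 cells with doxycycline. A second probe set of MME gave 0.85. The matricellular genes THBS1 and CCN2, an inhibitor of angiogenesis and a target of YAP, had differences of 1.14 and 1.00. The other THBS1 probe sets past the filter gave 0.19 and 0.42. EPAS1, the hypoxia factor HIF-2α, was at 5.93 and 6.83, and OSMR, the oncostatin M receptor, at 5.39 and 6.44. For OSMR a brighter probe set gave 0.47 and another gave 0.04. The other probe sets of EPAS1 were below the filter.

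Genes that EWS-FLI1 is known to activate were near level. Of 31 measured, 0 were higher and 2 lower. The lower ones were PPP1R1A at −0.81, an inhibitor of protein phosphatase 1, and the Hedgehog effector GLI1 at −0.72, and the list median was −0.07. NKX2-2, a repressor downstream of the fusion, was at 9.28 and 9.26. FLI1, whose 3′ part is in the fusion transcript, was at 8.98 and 9.14. In sh-scrambled cells with doxycycline FLI1 read 6.92 and 6.93, below both plasmid arrays.

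Extracellular matrix genes differed in both directions. Among 22 collagen chains 2 were higher and 3 lower. Their median was −0.37 and 20 were below 0, with a largest duplicate median of 0.13. The fibrillar collagens were lowest, 8 of them with a median of −0.57. COL3A1, of type III collagen, was at 8.49 and 7.51, and 2 brighter probe sets gave −0.77 and −0.80. COL1A1 had −0.55 and COL5A1 −0.61. In contrast COL8A1, a short-chain collagen of vessel walls, was at 4.46 and 6.07 and COL12A1, a FACIT collagen, at 7.96 and 8.72. Matrix glycoproteins and proteoglycans, 36 in number, had a median of 0.02, with 5 higher and 1 lower. The 5 were DCN, THBS1, TGFBI at 1.07, MGP at 1.06 and SPP1, or osteopontin, at 1.01. The list median was −0.07 against the mean of the 3 controls. Of 10 measured bone and cartilage genes, SPP1 and RUNX2, at 1.12, were higher and 0 were lower, and the median was 0.08, or −0.13 against the CDK2-resistant array.

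IGFBP7, a secreted relative of the IGF-binding proteins, was at 5.89 and 7.62, a difference of 1.73. With empty vector it was already far above the 3.39 and 3.56 of sh-scrambled cells. Of 10 measured genes of the IGF-binding list, it and IGFBP3 were higher and 0 were lower. Among mesenchymal surface proteins, CD9, a tetraspanin, was at 7.09 and 8.20, CD44, the hyaluronan receptor, at 9.37 and 10.16, and MCAM at 7.47 and 6.61. ITGA2, the collagen-binding integrin chain, was at 5.04 and 6.50, and it was the 1 of 21 integrins and laminins past the limit.

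Most proliferation genes lay slightly below 0. Of 35 mitotic genes, 31 were below 0 with a median of −0.29, and in the G1/S and DNA replication list 39 of 43 were below 0 with a median of −0.22. The largest duplicate medians were 0.10 and 0.07. Of all these genes only NEK2, a centrosome kinase, and ASPM, a spindle protein, were past the limit, and none was higher. NEK2 was at 7.16 and 6.08, and a brighter probe set of it gave −0.50. ASPM was at 7.90 and 6.91, but its duplicates differed by up to 1.59 and its brightest probe set gave −0.06. Cyclins CCNB1 and CCNB2 had −0.43 and −0.47, and the anaphase regulator CDC20 had −0.53. CDK2, the kinase whose sites on FOXO1 the third plasmid lacks, was at 6.85 and 6.42, a difference within the limit that was −0.11 by its brightest probe set.

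Every measured gene of cholesterol and fatty acid synthesis was below 0. Their median was −0.34 over 23 genes, with a largest duplicate median of 0.12, and 3 were past the limit. ELOVL6, which elongates fatty acids, was at 6.86 and 5.84. INSIG1, the sterol-responsive brake on SREBP, was at 8.79 and 7.90, and its other probe sets gave −0.84 and −0.70. HMGCS1, which makes HMG-CoA, was at 7.43 and 6.67. The factors SREBF1 and SREBF2, which drive these genes, had −0.36 and −0.45. For INSIG1 the sh-scrambled arrays read 9.96 and 9.89, so the empty vector level was itself the lower of the controls.

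Metallothioneins, small proteins that bind zinc and copper, formed the list with the highest median. Of 7 measured, 4 were higher, 6 were above 0 and the median was 0.82, against a largest duplicate median of 0.10. MT2A was at 10.35 with empty vector and 11.35 with AKT-resistant FOXO1, and at 10.13 with the CDK2-resistant form. It was 9.23 and 9.27 in sh-scrambled cells, 12.21 and 12.14 with doxycycline, and 11.51 and 11.56 in sh-FOXO1 cells with doxycycline. MT1X, MT1H and MT1E had differences of 1.05, 1.02 and 0.82, MT1F and MT1G were close under the limit at 0.68 and 0.65, and MT3 had −0.16. These genes are near-identical in sequence and their probe sets can bind each other's transcripts, so the members cannot be told apart with certainty.

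The metallothionein promoters are known for metal response elements, whose core is TGCGCNC or TGCACNC on either strand. The search for them was chosen after these values had been seen. Of all 9989 promoters, 38.8% held at least 1 core and 3.36% held 3 or more, while that of MT1X held 4 and that of MT2A 8. The 150 bases before the start site show the cores in capitals.
MT1X: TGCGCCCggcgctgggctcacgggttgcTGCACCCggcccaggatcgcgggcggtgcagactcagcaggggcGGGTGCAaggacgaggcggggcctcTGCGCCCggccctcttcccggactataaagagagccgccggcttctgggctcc
MT2A: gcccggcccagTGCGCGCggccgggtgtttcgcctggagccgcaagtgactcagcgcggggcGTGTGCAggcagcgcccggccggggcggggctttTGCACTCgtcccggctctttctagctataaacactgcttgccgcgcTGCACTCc
They lie on the plus strand at chr16:56682320-56682469 and chr16:56608434-56608583. Metal levels and the factor that reads these elements were not measured.

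Upstream of FOXO1 and beside it, single genes were past the limit. SGK1, a kinase that phosphorylates FOXO proteins as AKT does, was at 11.05 and 11.84. PIK3R1, the regulatory subunit of PI3K, was at 6.31 and 5.34, although its brightest probe set gave −0.25. The receptors IGF1R and INSR, which FOXO proteins are known to raise in other cells, had 0.49 and 0.31. PDGFRA was at 4.67 and 5.43, and its other probe set past the filter gave 0.71. The growth factor receptor EGFR was at 4.78 and 4.01, but its probe sets disagreed, and another read 4.63 and 5.35, past the limit the other way. FGFR1 was at 5.50 and 4.77 by its dimmest probe set, while its 6 brighter ones gave −0.30 to 0.14. Of 7 measured 14-3-3 genes none was past the limit, and the lowest was YWHAE at −0.68. The oncostatin M and IL6 list had 3 higher genes of 17, 0 lower and a median of 0.17. They were OSMR, LIFR at 0.92, which signals through the same gp130 chain, and the kinase JAK2 at 0.80, of which the brightest probe sets gave 0.18 for LIFR and 0.03 for JAK2.

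Chemokine and NF-kB genes showed no common shift against empty vector, with 1 of 24 higher, 2 lower and a median of −0.02. CXCL8, or interleukin 8, was 1.06 above its empty vector level of 7.93, whereas CCL2, which attracts monocytes, was at 6.83 and 5.55 and IL1A at 7.98 and 7.13. The direction for IL1A turned against the mean of the 3 controls (0.53), since it read 5.75 and 6.07 in sh-scrambled cells, and the list median there was 0.12. On the CDK2-resistant array these genes were higher, with CXCL8 at 9.57, CCL2 at 8.93 and IL1A at 9.29. The list median against empty vector was 0.63 there, and both mutants share that 1 control array. Directly between the mutants the list median was −0.87, AKT-resistant minus CDK2-resistant, and that of the metallothioneins was 1.02.

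**Figure D3:**
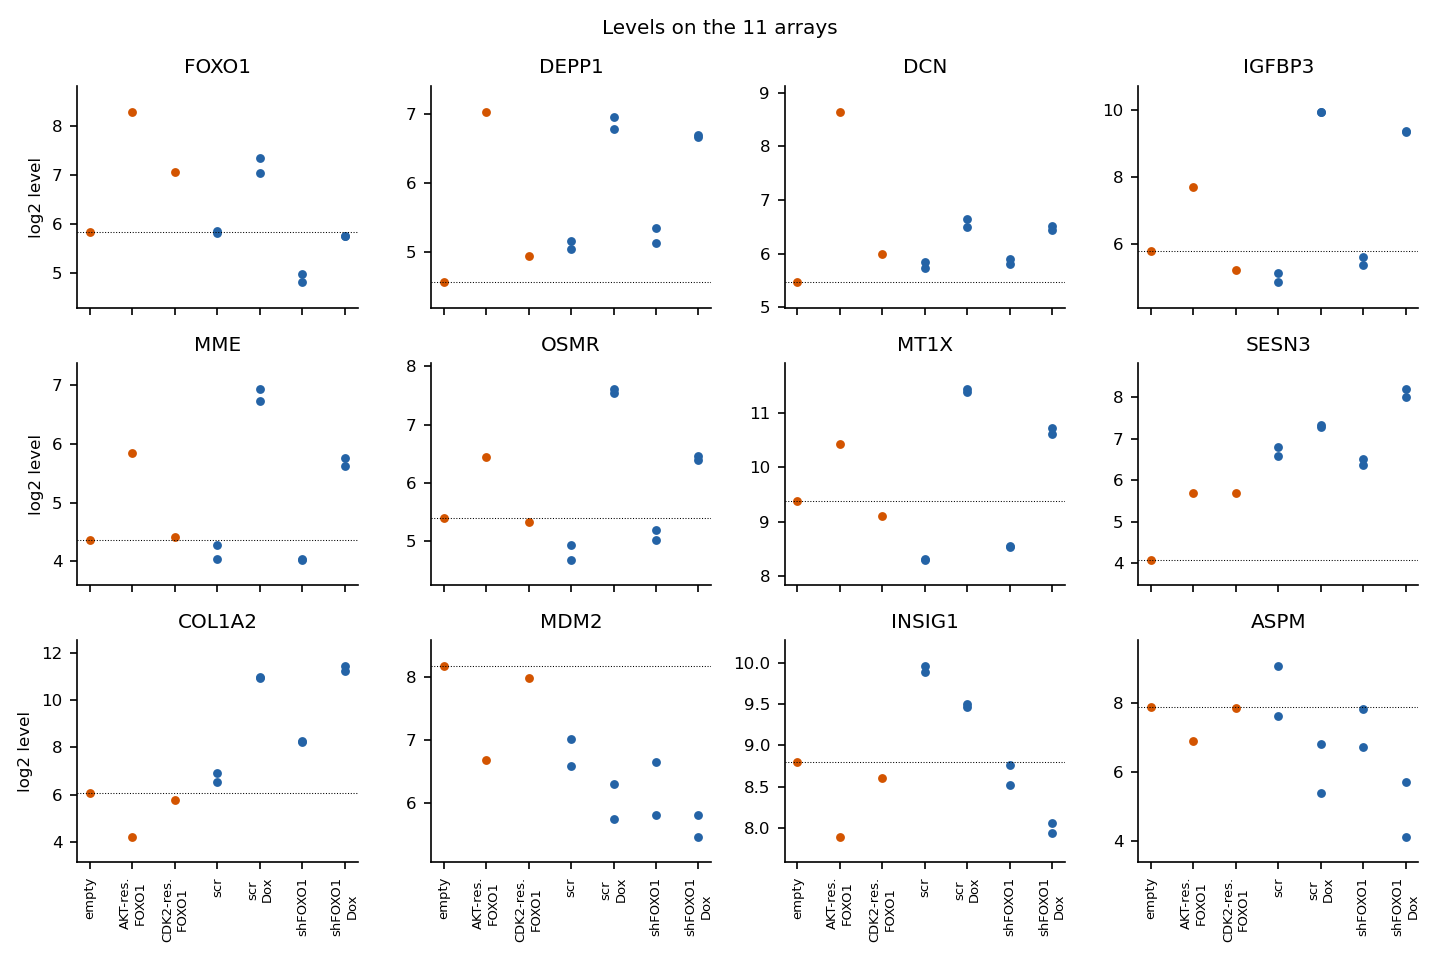
Log2 level (y axis, a scale for each gene) of 12 genes on the 11 arrays, with the plasmid arrays in orange and the shRNA duplicates in blue (scr, sh-scrambled; Dox, doxycycline for 48 h). The dotted line is the empty vector level; DEPP1, IGFBP3, MME, OSMR and MT1X are higher on the AKT-resistant array than with empty vector and lie nearer to their sh-scrambled levels with doxycycline, and SESN3 has its lowest level on the empty vector array.

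The study asked whether genes raised by active FOXO1 are those that EWS-FLI1 holds down. EWS-FLI1 knockdown was sh-scrambled with against without doxycycline (n = 2 against n = 2, none of them arrays of the plasmid comparison), called by limma where the adjusted p was below 0.05 and the log2 fold change beyond 1. Of all 12326 genes 998 rose (8.1%) and 923 fell (7.49%). Of the 208 higher genes 98 rose (47.1%) and 4 fell (1.92%). Of the 186 lower genes, 36 rose (19.4%) and 41 fell (22%). With the CDK2-resistant array as control the share that rose was 29.2% (151 of 518). Read from the other side, the 98 were 9.82% of the genes that rose after knockdown, where 1.69% of all genes were higher. The 36 lower genes were 3.61% of those that rose, against 1.51% of all genes. The median knockdown log2 fold change of the higher genes was 0.77, of the lower genes −0.20 and of all genes −0.06.

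The changes were unequal in size. Over the 98 shared genes the median difference with AKT-resistant FOXO1 was 0.93 and the median knockdown log2 fold change 2.43. In 5 of the 98 the AKT-resistant difference was the larger, and in 24 the AKT-resistant array reached the lower of the knockdown arrays. The empty vector array was above both sh-scrambled arrays in 71 of the 98, and the AKT-resistant array was above both in 97. Of the 15 highest genes, 6 rose after knockdown: FOXO1, MMP10, TM4SF1, CARD16, DEPP1 and CLEC2B. CLCA1, RBP4, ANGPT2 and CD55 were not among the genes that rose, with knockdown log2 fold changes of −0.08, 0.09, −0.12 and −0.60, the last with an adjusted p = 0.00075 (limma).

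The 36 lower genes that rose after knockdown included genes of the matrix. COL1A2, POSTN, COL16A1, COL3A1 and LRRC17 were lower with AKT-resistant FOXO1 and rose by 4.20, 5.26, 1.91, 2.72 and 3.84 after knockdown (adjusted p = 6.9e-08, 1.5e-07, 3.5e-07, 1.4e-07 and 3.7e-08, limma). Other matrix genes were higher with AKT-resistant FOXO1 and rose too, among them COL8A1, COL12A1, THBS1, TGFBI, MGP and SPP1. PTX3, CCL2 and the neuronal genes NEFM, NEFL and GAP43, all lower here, rose as well. Lower genes that fell after knockdown as well were SERTM1 at −2.93, PPP1R1A at −2.83, ELOVL6 at −2.13, NEK2 at −2.25 and HMGCS1 at −1.76. ASPM also fell, at −2.26, a call that was lost without sh-scrambled replicate 2 (adjusted p = 0.13, limma) or without sh-scrambled doxycycline replicate 1 (adjusted p = 0.15, limma).

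**Figure D4:**
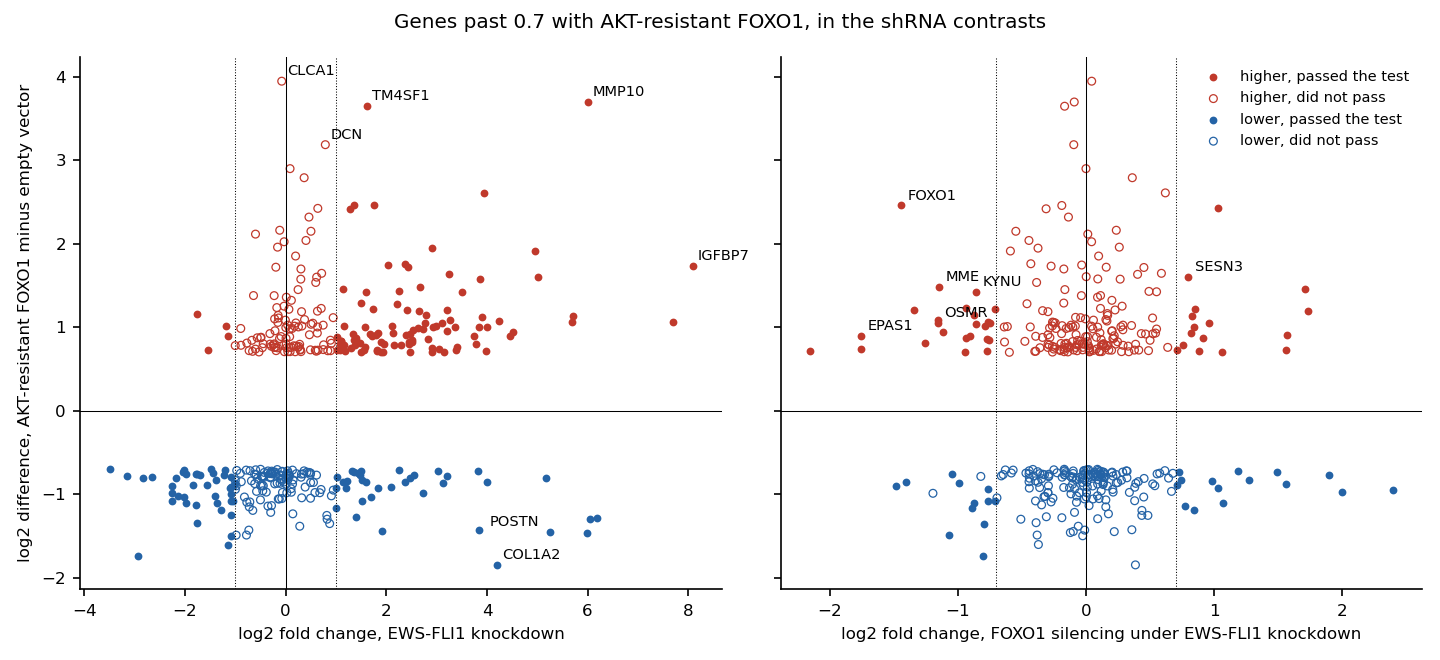
Log2 difference between AKT-resistant FOXO1 and empty vector (y axis) for the genes past 0.7, against their log2 fold change after EWS-FLI1 knockdown (left x axis) and after FOXO1 silencing under the knockdown (right x axis). Filled points passed the limma test; of the red, higher genes 98 of 208 are filled at the right of the left panel, and 24 are filled at the left of the right panel.

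Silencing of FOXO1 under the knockdown (sh-FOXO1 against sh-scrambled, both with doxycycline, n = 2 against n = 2) gives the reverse manipulation. By limma, with the adjusted p below 0.05 and the log2 fold change beyond 0.7, 292 genes fell (2.37%) and 380 rose (3.08%). Of the 208 higher genes 24 fell (11.5%) and 16 rose (7.69%), and of the 186 lower genes 12 fell (6.45%) and 15 rose (8.06%). The share of higher genes that fell depended on the control array: it was 4.12% (34 of 825) with the mean of the 3 controls and 5.6% (29 of 518) with the CDK2-resistant array. Without doxycycline, where 287 genes fell (2.33%) and 425 rose (3.45%), 8 of the higher genes fell (3.85%) and 33 rose (15.9%). The silencing and knockdown contrasts share the sh-scrambled arrays with doxycycline.

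In 19 genes all 3 directions met: higher with AKT-resistant FOXO1, risen after knockdown and fallen after FOXO1 silencing under it. They were 21.1% of the 90 genes that rose and fell in the 2 shRNA contrasts, where 1.69% of all genes were higher. Of the same 90 genes, 4 (4.44%) were lower with AKT-resistant FOXO1, against 1.51% of all genes. FOXO1 was 1 of them, as the target of the plasmid and of the shRNA. EPAS1 rose by 4.45 after knockdown and had −1.76 after silencing (standard error 0.08, adjusted p = 1.9e-05, limma). MME had 2.68 and −1.15 (standard error 0.11, adjusted p = 0.00028, limma), and OSMR 2.78 and −1.16 (standard error 0.10, adjusted p = 0.00022, limma). NNMT, a nicotinamide methyltransferase, was at 6.17 and 7.12 on the plasmid arrays and had −1.12 after silencing (adjusted p = 0.0002, limma). The interferon-induced GTPase gene GBP2 was at 4.67 and 5.88 and had −1.35 (adjusted p = 0.00022, limma).

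KYNU was at 4.13 and 5.55 and had −0.86 after silencing (adjusted p = 0.00091, limma), with plasmid differences of 0.36 and 0.10 in its other bright probe sets. NR4A2, an immediate early nuclear receptor, was at 5.52 and 6.24, just past the limit, and had the largest silencing effect of those named here, −2.16 (adjusted p = 2.4e-05, limma). The set also held MT1X, MT1H and the metallothionein-like MT1HL1, with −0.75, −0.79 and −0.78, and the transcription factor GLIS3, the pyrimidine-degrading enzyme gene DPYD, ZNF804A, TNFSF18 and CXCL8. A brighter DPYD probe set gave a plasmid difference of 0.08. The CXCL8 call was lost when any 1 of the 4 doxycycline arrays was left out (adjusted p = 0.05 to 0.15, limma). Without sh-FOXO1 doxycycline replicate 1 the 19 became 13, since MT1X, MT1HL1, DPYD, ZNF804A and FAM171B then passed the p but not the fold limit and CXCL8 passed neither. On the CDK2-resistant array the median difference of the 19 from empty vector was near 0, and 3 of them, FOXO1, KYNU and CXCL8, were past 0.7. Silencing without doxycycline, the setting of the plasmid arrays, lowered FOXO1 itself, with a log2 fold change of −0.95. There CXCL8, SERPINB7 (also of the 19) and KYNU rose instead, by 3.16, 1.35 and 1.02. The others of the 19 were within 0.7 in that contrast.

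Some higher genes rose after silencing. ITGA2 rose by 1.71 (adjusted p = 0.00012, limma), MMP3 by 1.03 (adjusted p = 0.00044, limma) and THBS1 by 0.83 (adjusted p = 0.00032, limma), and KDR, the VEGF receptor, by 1.56 (adjusted p = 2.8e-05, limma). SESN3 rose by 0.80 (adjusted p = 0.0012, limma), with a log2 fold change of 0.70 and no call without sh-FOXO1 doxycycline replicate 2. INSIG1, lower with AKT-resistant FOXO1, fell after silencing as well, by 1.48 (adjusted p = 6.8e-05, limma), as did the contractile gene ACTA2, by 1.05 (adjusted p = 0.00017, limma).

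Markers of other cell types were mostly dim. Of 14 epithelial markers 5 were measured, of 13 blood cell markers 2 and of 11 endothelial markers 7, and the defining genes EPCAM, CDH1, PTPRC, CDH5 and VWF were below the filter. Of those measured, KDR alone was past the limit, at 4.14 and 5.04. Of 14 Ewing sarcoma and neuroectodermal markers 0 were past the limit, 6 were above 0 and 8 below, and the median was −0.02. Their differences ran from −0.54 for EWSR1 to 0.34 for GJA1, with CD99, STEAP1 and NKX2-2 at −0.02, 0.16 and −0.01. Of 10 ribosomal protein genes and 12 reference genes none was past the limit and both medians were 0.01.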

How the data were processed

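The 11 arrays were of the type Affymetrix HG-U133 Plus 2. The authors deposited 54675 log values per array, 1 for each probe set and normalized between arrays, and the base is taken as log2 from the range of 2.60 to 14.64. The summarisation method and annotation of the authors are not given in the sources used here. Of the probe sets, 41097 had 1 gene symbol, 1801 several and 11777 none, and the gene identifier served to update 99.9% of symbols. The filter kept a probe set that reached the 60th percentile on any array, and each gene was represented by the one with the largest interquartile range, leaving 12326 genes.

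AKT-resistant FOXO1 minus empty vector was a difference of 2 arrays with a limit of 0.7. The shRNA groups were compared with limma 3.58.1 (R 4.3.3) on all 11 arrays in 7 groups, with 4 residual degrees of freedom and Benjamini-Hochberg adjustment over all genes. Precision is limited by the number of arrays, and since nothing says that duplicates were separate cultures, a p-value measures the spread between these arrays, which may be technical. The model was tested on simulated data. Tables and promoters were read with Python 3.11.15 and pandas 2.3.3.

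Genes named are those the study names, the 15 highest and 12 lowest differences among genes that reach the median of either array and pass every duplicate difference, list members past the limit or carrying a list's role, and up to 15 of the genes higher, risen and fallen. The genes beside the limit, the collagens and FOXO targets given by value within it, and the 3 CDK2-array exceptions were taken from those lists or counts after the values were seen. The gene lists and rules were chosen with earlier results of these data known. The alternatives were other control arrays, probe sets, filters, a quantile normalization, a limit of 1, a longer motif, the replicate number as a block and leaving out each shRNA array.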

Additional observations from a re-analysis of the deposited data

How the results depend on the processing

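The counts of higher and lower genes depended on the control and the limit. They were 825 and 533 against the mean of 3 control arrays, 518 and 583 against the CDK2-resistant array, 134 and 109 for genes at the median of both arrays, 90 and 49 past a limit of 1, 329 higher without the filter, and within 1.5 times otherwise. List medians against the 3-array mean and then against the CDK2-resistant array were 0.54 and 0.15 for FOXO stress and metabolic targets, 0.34 and 0.27 for growth arrest and death targets, −0.48 and −0.58 for collagen chains, −0.45 and −0.40 for mitosis, −0.62 and −0.43 for cholesterol and fatty acid synthesis and 1.31 and 1.02 for metallothioneins. For EWS-FLI1-repressed genes the median was 0.83 against the 3-array mean and 0.19 at the median of both arrays. The FOXO stress median was 0.26 with the brightest probe sets, 0.17 without the filter and 0.26 at the median of both arrays, and the growth arrest median 0.17 without the filter. None of these medians changed sign, but over all 37 lists 8 medians changed sign against the 3-array mean and 9 against the CDK2-resistant array. Among single genes, differences changed sign against the 3-array mean for PTX3 (0.19), SESN3 (−0.13) and IL1A (0.53), against the CDK2-resistant array for SESN3 (−0.00), GAP43 (0.25) and CXCL8 (−0.57), and without the filter for RBP4 (−0.54). The cause was not tested. The genes higher that rose after knockdown numbered 151 with the CDK2-resistant array as control (29.2% of 518). The forkhead core share of higher genes was 0.602% with the longer motif GTAAACAA and 5.63% past a limit of 1, where that of lower genes was 2.86%.

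With the replicate number as a block, 98 higher genes rose after knockdown and 24 fell after FOXO1 silencing, the counts without it. Leaving out single arrays gave 97 to 98 and 17 to 24. The numbers are only shared between groups of 2: deviations of same-numbered arrays correlated at 0.44 to 0.621 over 6 pairs of groups.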

Other observations

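Probe sets without a single gene symbol were left out of the comparison of genes. Of 13578 such probe sets 3666 passed the filter, and of these 51 (1.39%) were higher and 56 (1.53%) lower with AKT-resistant FOXO1, shares close to those of the named genes. The highest difference was 2.73, of a probe set that read 5.26 with empty vector and 7.99 with AKT-resistant FOXO1.

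Lists of other processes held few genes past the limit. Of 27 autophagy and lysosome genes 0 were past it, with a median of 0.09 and 18 above 0. Of 32 hypoxia and glycolysis genes 1 was higher, EPAS1, and of 16 p53 targets 1 was lower, MDM2. Of 28 immediate early and MAPK feedback genes 1 was higher (NR4A2) and 1 lower (NR4A3 at −1.03), with 21 above 0. Of 25 neural and axon guidance genes 3 were lower and 0 higher. Of 20 interferon-response genes 1 was lower, IFI44L. Of 16 contractile and YAP targets 2 were higher (CCN2 and ANKRD1) and 1 lower (ACTA2). The 7 YAP or SRF targets among them were all above 0, with a median of 0.59. Of the 9 contractile genes 7 were below 0, with a median of −0.12, and the median of the whole list was 0.06.

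In genes with several probe sets past the filter the probe sets did not always go together. Of 97 such higher genes, all probe sets were above 0 in 77 and past the limit in 26, and of 99 such lower genes all were below 0 in 63.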
